A study of Mus musculus with 2 samples.

Results

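The P15 Stalk cells were the endothelial cells of postnatal day 15 mouse retinas that carried the label Stalk in the study's published assignment of cells to clusters. They were found by matching the barcodes of that assignment to the barcodes of the P15 count table. There were 85 Stalk cells among the 438 P15 barcodes that carried a label in the copy used here (19.4%, exact 95% binomial interval 15.8 to 23.4). The same label was carried by 230 of 1560 labelled P6 barcodes (14.7%, 13.02 to 16.6), and 1703 of the 2141 P15 barcodes carried no label. All intervals given for shares and ratios cover counting error only.

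In a sprouting vessel, a leading tip cell extends filopodia towards a source of VEGF, and the stalk cells behind it divide, form the lumen and keep contact with the parent vessel. Notch signalling divides the roles: the ligand Dll4 on tip cells activates Notch in their neighbours, which lowers their response to VEGF, while the ligand Jag1 on stalk cells opposes Dll4. Cytoplasmic beta-actin, encoded by Actb, forms much of the filament network under the endothelial membrane. In the mouse retina the superficial plexus spreads outwards in the first postnatal week, and deeper plexuses form in the next one.

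The study addressed how endothelial phenotypes along the arterial to venous range relate to the state of the cell cycle. Retinal endothelial cells of wild-type C57BL/6 mice were sorted as CD31+CD45- cells at P6 and P15 and sequenced as single cells in droplets, with 1 library per age. How many mice were pooled for a library is not given in the sources used here. Both ages carry the wild-type genotype and no treatment, so age and library cannot be told apart, and nothing below is a test between replicates.

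The P15 library held 11589641 unique molecular identifiers (UMIs, each counting 1 captured RNA molecule), and the P6 library held 13958124. P15 Stalk cells had a median of 3875 UMIs per cell (quartiles 2852 and 5258), against 4478 in the 353 other labelled P15 cells and 5448 in P6 Stalk cells. Their medians of 1982 detected genes and 1.0% mitochondrial UMIs lay beside 2093 and 1.04% in the other labelled P15 cells. Of the 85 cells, 4 held more than 3500 genes, which the study's stated filter, read as a limit on detected genes, would leave out. Doublets were not called here, and 1 of the 85 cells held UMIs of both Xist and a Y-linked gene. Xist UMIs were found in 3 of 85 Stalk cells at P15 and 30 of 230 at P6, and Y-linked UMIs in 45 and 67. The mix of sexes may thus differ between the libraries, which was not tested. The libraries shared 7 barcode sequences, of which 0 belonged to P15 Stalk cells.

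Levels are given as CPM, the UMIs of a gene per 1000000 UMIs of the cells named, and differences as ratios of CPM with a 95% interval. A gene was counted as higher or lower when its ratio was past 1.5-fold, and genes with fewer than 100 UMIs over the cells compared were not counted. Of 3695 genes with enough UMIs at P15, 133 (3.6%) were at least 1.5-fold higher in Stalk cells than in the other labelled P15 cells, and 196 (5.3%) were at least 1.5-fold lower. When the median ratio of all genes, 0.952, was set to 1, the counts became 164 higher and 141 lower. Since the clusters were made from these same genes, Stalk against the rest of the library is a description of the label.

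The label was first compared with what is known of stalk cells. Among 9 genes of a stalk cell list with enough UMIs, 1 was past 1.5-fold, the Notch ligand Jag1. It stood at 299 CPM in Stalk cells and 105 CPM in the others (ratio 2.85, 2.24 to 3.61), and the ratio was 1.75 when every other cluster had equal weight. Among P15 clusters of at least 10 cells Jag1 was second to the Arterial cluster, at 856 CPM. The Notch target Hes1 had a ratio of 1.18 (1.04 to 1.33), the VEGF trap Flt1 0.892 (0.790 to 1.004), the apelin receptor Aplnr 0.877 and the BMP target Id1 1.13 (0.980 to 1.30). The other known stalk genes thus lay near the level of the remaining cells, and the name Stalk is used below as the study's label. General endothelial genes were as high as elsewhere: 10 of 10, among them the tight junction gene Cldn5 (1.03) and the adhesion gene Pecam1 (0.856), had ratios from 0.838 to 1.07.

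Actb was the marker that set these cells apart. It stood at 27629 CPM in P15 Stalk cells and 5166 CPM in the other labelled P15 cells, a ratio of 5.35 (5.20 to 5.50), with 10919 UMIs behind the first value. Per 10000 UMIs of a cell, Actb ranged from 34.2 to 815 over the 85 Stalk cells, with a median of 256 and quartiles of 153 and 441. In the other labelled cells it ranged from 0 to 254, with a median of 42.2, and the cluster medians lay between 27.7 in Arterial and 68.3 in Tip cells. The groups overlapped at their edges: 76 of 85 Stalk cells and 30 of 353 others (8.50%) reached 101 per 10000, the 10th percentile of Stalk cells. Within the Stalk label Actb ran from 0.342% to 8.15% of a cell's UMIs. The 5 highest cells held 17.5% of the Actb UMIs of the 85.

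**Figure D1:**
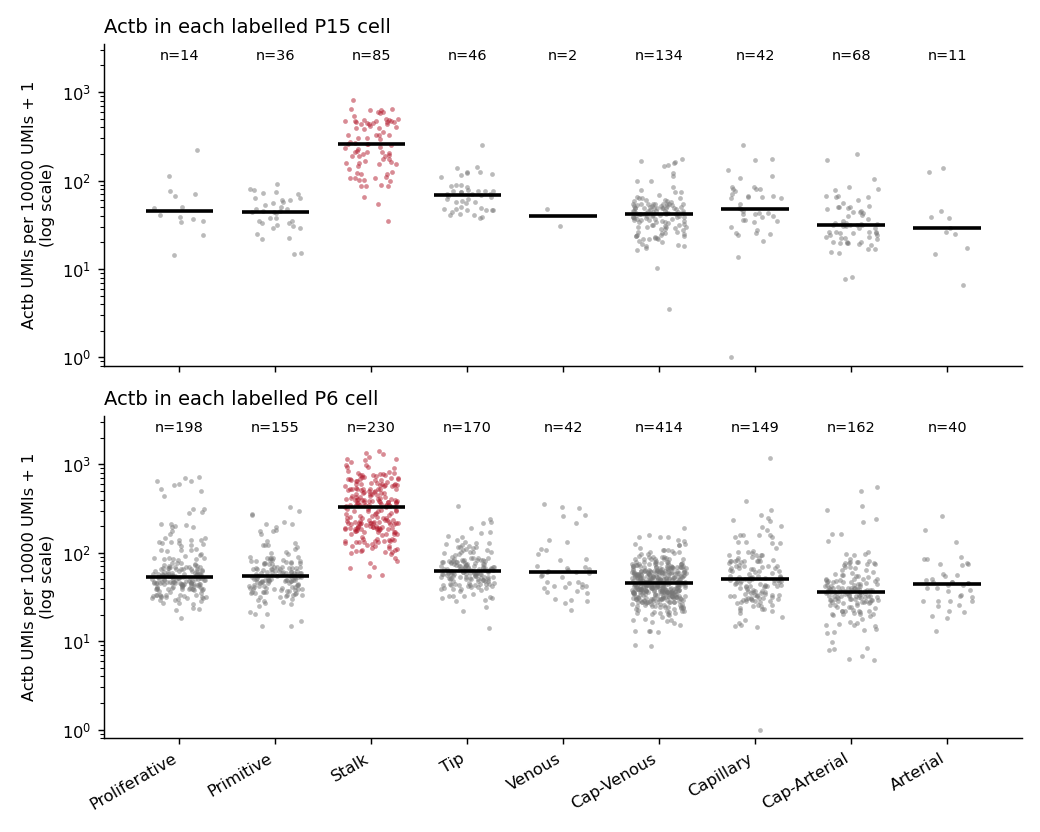
Actb UMIs per 10000 UMIs of a cell plus 1, on a log scale, for each labelled cell of the P15 library (top) and the P6 library (bottom). Points are cells, red for Stalk, bars are medians and n is the number of cells; the P15 Stalk median of 256 lies above every other P15 cluster's median, and the P6 Stalk median is 327.

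Actb stood apart from most of the actin genes listed here. Of 33 actin and actin binding genes with enough UMIs, 2 were at least 1.5-fold higher and 0 lower, beside 3.6% and 5.3% of all genes, and the list's median ratio was 0.965. The second gene was Myh9, the heavy chain of non-muscle myosin IIA, at 276 CPM against 136 CPM (2.02, 1.60 to 2.55). The actin-related gene Actr2, which was not in the list, had a ratio of 1.95. Actg1 encodes the other cytoplasmic actin, which differs from beta-actin at a few residues. It stood at 2075 CPM in Stalk cells and 2379 CPM in the others (0.872, 0.808 to 0.940), and its medians per 10000 UMIs were 20.2 and 20.4. The actin sequestering thymosin Tmsb4x had a ratio of 0.956 and the small GTPase Rhoa 1.42 (1.22 to 1.66). Among 8 known SRF and YAP target genes, Actb, Myh9 and the matricellular gene Ccn2 (2.01, 1.396 to 2.87, from 47 UMIs in 16 cells) were higher and 0 were lower. Actb and Myh9 were already counted in the actin list, so only Ccn2 is added here. Of 8 tubulin and intermediate filament genes 2 were higher, Tubb5 (1.52, 1.41 to 1.64) and the lamin gene Lmna (1.59, 1.16 to 2.16). Tubb5 was at 1.45 and Lmna at 1.02 in cells that pass the study's stated filters.

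The genes with the largest ratios beside Actb were a mixed set. Slc39a1, which encodes a zinc importer of the plasma membrane, led at 676 CPM against 93.98 CPM (7.19, 5.90 to 8.79). Abhd2, a serine hydrolase of lipid metabolism, stood at 1999 CPM against 316 CPM (6.33, 5.67 to 7.07). Ttyh2, a membrane protein of the tweety family, stood at 1409 CPM against 279 CPM (5.06, 4.47 to 5.73). These 3 and Actb were detected in most Stalk cells, Abhd2 in 81, Ttyh2 in 79 and Slc39a1 in 75 of the 85. Lrrc8a, the obligatory subunit of the volume-regulated anion channel, had a ratio of 4.72 (4.08 to 5.45), and the peptide amidating enzyme gene Pam 4.58 (3.73 to 5.61). Kdelr2, a receptor that returns escaped proteins to the endoplasmic reticulum, had 4.06 (3.39 to 4.86). The remaining nuclear and RNA-related members were the RNA-binding gene Marf1 (3.85), the chromatin zinc finger Gatad1 (3.78), the zinc finger gene Zscan26 (3.76), the transcription factor Nfia (3.73) and Wtap (3.53), a subunit of the complex that methylates adenosines in mRNA. Cdkn1b encodes a CDK inhibitor that holds cells in G1, the cell cycle phase the study was concerned with. It had 55 UMIs in 32 Stalk cells and 52 UMIs in 47 of the other cells, 139 CPM against 29.8 CPM (4.67, 3.14 to 6.96). The other CDK inhibitors went differently: Cdkn1a was at 1.203 (1.04 to 1.39), Cdkn1c at 0.571 (0.364 to 0.862) and Cdkn2d at 0.624 (0.329 to 1.10).

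The set also held a pair of unnamed transcripts. Gm43581 (136 UMIs, ratio 4.66) lies at chr3:104642994-104645857 in GRCm38, within an intron of the lactate carrier gene Slc16a1 and on its strand, so reads of the host's unspliced RNA cannot be told from it. Gm37760 (chr1:58797783-58801623, within Casp8 and on its strand) had a ratio of 4.26, but 59 of its 83 Stalk UMIs (71.1%) were in 1 cell. Its ratio was 1.59 without that cell and 1.04 in cells thinned to 3000 UMIs, so it is left out of the summaries of the leading genes below.

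The promoter windows of 3 of the leading genes and of Jag1 are shown because these genes share a high ratio in Stalk cells. Each runs 5′ to 3′ on the gene's strand from RefSeq on GRCm38.p6, from 250 bases before the start to 50 after it, and capitals mark GC boxes, the letters GGGCGG or their complement CCGCCC. The windows are chr3:90247942-90248241 (Slc39a1), chr7:79273016-79273315 (Abhd2), chr2:30237519-30237818 (Lrrc8a) and, on the minus strand, chr2:137116471-137116770 (Jag1).
Slc39a1: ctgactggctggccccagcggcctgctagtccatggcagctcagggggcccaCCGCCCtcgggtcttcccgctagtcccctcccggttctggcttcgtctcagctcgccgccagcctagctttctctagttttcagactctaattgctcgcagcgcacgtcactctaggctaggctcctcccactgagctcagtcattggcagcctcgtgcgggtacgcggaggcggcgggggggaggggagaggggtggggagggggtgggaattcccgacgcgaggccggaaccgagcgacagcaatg
Abhd2: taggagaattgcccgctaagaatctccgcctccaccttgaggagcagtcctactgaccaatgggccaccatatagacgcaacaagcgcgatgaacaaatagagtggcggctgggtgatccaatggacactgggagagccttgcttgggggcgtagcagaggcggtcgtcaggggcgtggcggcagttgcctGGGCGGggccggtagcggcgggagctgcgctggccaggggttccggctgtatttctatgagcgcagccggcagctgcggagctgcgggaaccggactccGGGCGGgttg
Lrrc8a: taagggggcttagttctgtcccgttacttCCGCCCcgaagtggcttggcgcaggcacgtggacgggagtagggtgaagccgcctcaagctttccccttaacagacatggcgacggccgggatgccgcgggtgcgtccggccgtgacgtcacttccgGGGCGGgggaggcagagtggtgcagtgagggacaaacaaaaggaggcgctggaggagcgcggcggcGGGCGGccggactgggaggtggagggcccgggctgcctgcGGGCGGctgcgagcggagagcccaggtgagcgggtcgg
Jag1: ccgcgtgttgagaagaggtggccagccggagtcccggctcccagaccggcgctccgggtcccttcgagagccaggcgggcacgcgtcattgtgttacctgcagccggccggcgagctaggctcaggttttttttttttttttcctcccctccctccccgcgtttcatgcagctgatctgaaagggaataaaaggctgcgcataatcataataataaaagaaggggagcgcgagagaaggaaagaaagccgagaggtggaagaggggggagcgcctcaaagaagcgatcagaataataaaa
A GC box was found in 8 of the 10 leading genes that have an entry in the promoter table, in 73.8% of the 103 higher genes with an entry, in 68.7% of the 2808 tested genes with one and in 35.9% of all 27025 promoters. The window of Jag1 held 0. The CArG box, the motif of the serum response factor for which the Actb promoter is known, was found in 0 of the 10 and 0 of the 103, and in 1.35% of the tested and 1.57% of all promoters. The promoter of Actb itself was not analysed here. The motif TATAAA was found in 0 of the 10, 6.80% of the 103 and 8.08% of the tested genes.

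Across the clusters, Stalk was the highest of those with at least 10 cells for each of the leading genes. Against the Tip cluster (46 cells) all 14 were past 1.5-fold, from 2.53 for Kdelr2 to 48.9 for Gm43581 (13.3 to 408), which had 2 UMIs in Tip cells. Against Cap-Venous, the largest cluster with 134 cells, the 14 ratios ran from 3.73 to 9.92, and against Cap-Arterial from 2.87 to 10.4. Against the shallow Capillary cluster, whose 42 cells had a median of 2268.5 UMIs, 13 of 14 were past 1.5-fold, and Gm43581 was at 1.30. The margin over the next cluster was widest for Abhd2, at 4.23-fold above Capillary, and Actb stood 3.52-fold above Tip (3.36 to 3.68).

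**Figure D2:**
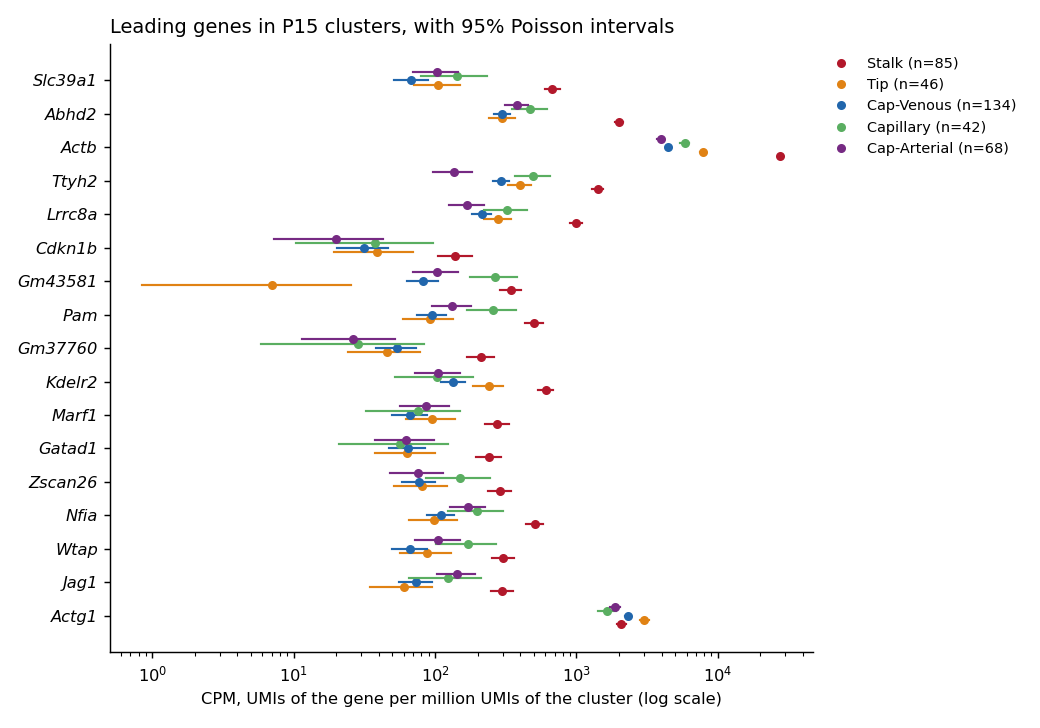
CPM of the 15 leading genes, Jag1 and Actg1 in 5 P15 clusters, on a log scale, with 95% Poisson intervals for counting error. Stalk (red) lies to the right of the other clusters for the leading genes and Jag1, and within their range for Actg1 (2075 CPM).

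Single Stalk cells held several of the companions of Actb, which were chosen for their high level in these cells, so the counts per cell describe the label. Each cell with at least 3000 UMIs was thinned to 3000, which kept 62 Stalk cells and 259 others and left out 23 and 94 shallower ones. Of the 13 leading genes other than Actb, a thinned Stalk cell held a median of 9 (5 to 12), with 23 UMIs (8 to 43). A thinned cell of the other clusters held a median of 3 (0 to 10), with 4 UMIs (0 to 25). Gene by gene, the share of thinned cells with a UMI was 25.8% to 95.2% in Stalk cells and 6.56% to 50.2% in the others. Before thinning, Slc39a1 was found in 75 of 85 and 106 of 353 cells, and Marf1 in 50 of 85 and 90 of 353. For scale, any of 7 photoreceptor markers, which endothelial cells should lack, was found in 26 of 85 Stalk cells (30.6%, median depth 3875 UMIs) and 101 of 353 others (28.6%, 4478 UMIs).

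Among the 62 thinned Stalk cells, Slc39a1 had the highest Spearman correlation with Actb of 716 genes found in at least 50% of these cells (coefficient 0.55), followed by Abhd2 (0.48), the ribosomal gene Rpl29 (0.46), Srrm2 (0.40) and Tmsb10 (0.40). The middle 90% of the 716 coefficients lay between -0.26 and 0.26. The 44 of these genes that were higher in Stalk cells had a median coefficient of 0.11, against 0.00 for the others, and 9 of them were among the top 20. The points are cells of 1 library, and sparse counts hold such coefficients down.

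The pattern was largely the same under the P6 label. At P6, 8019 genes had enough UMIs, of which 237 (2.96%) were higher and 584 (7.28%) lower in Stalk cells, or 315 and 439 with the median ratio of 0.938 set to 1. Among 3679 genes with enough UMIs at both ages, 130 were higher at P15 and 92 at P6, and 80 were higher at both, which is 61.5% of the P15 genes and 87.0% of the P6 genes. Of the 130, 118 had a ratio above 1 at P6, with a median of 1.77. Of the genes that were lower, 191 at P15 and 67 at P6, 19 were shared (9.95% and 28.4%). The higher genes recurred at the other age more than the lower genes did, by these counts. The study integrated both ages before clustering, so the label was made from both together. The recurrence therefore describes the shared label and is no independent check of it. At P6 Slc39a1 had a ratio of 6.45 (5.87 to 7.08), Actb 5.84 (5.77 to 5.91), Abhd2 5.46 (5.16 to 5.78), Cdkn1b 4.23 and Jag1 2.89 (2.62 to 3.18). Without Gm37760 (0.883 at P6), the P6 ratios of the leading genes ran from 3.26 to 6.45.

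**Figure D3:**
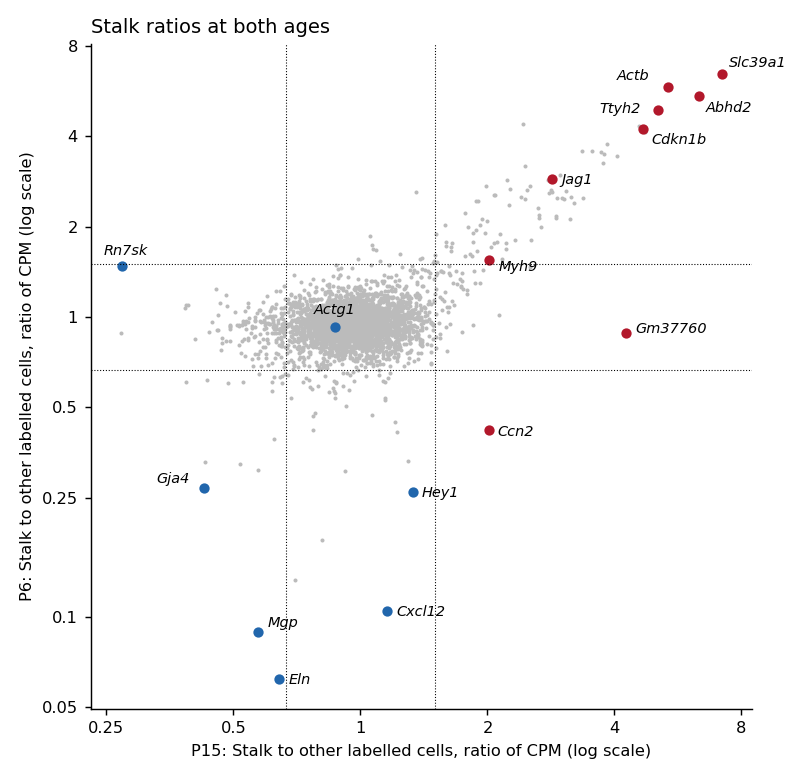
Ratio of CPM in Stalk cells to other labelled cells at P15 (horizontal) and P6 (vertical), both on log scales, for genes with at least 100 UMIs at both ages; dotted lines mark 1.5-fold and red and blue mark named genes at or above and below 1.5 at P15. Actb (5.35 and 5.84) and its companions lie at the upper right, and Cxcl12 (1.16 and 0.105) and Eln (0.642 and 0.0624) at the bottom.

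Beyond the 15 leading genes, the following were picked after their values were seen, and lie among the 60 largest ratios. Gnb1, a beta subunit of heterotrimeric G proteins, had a ratio of 2.80 (2.56 to 3.06), and the phosphatase gene Dusp3 3.16 (2.70 to 3.68). Alkbh5, which removes the methyl mark that the Wtap complex sets, had 3.36 (2.64 to 4.27), and the splicing factor Srsf2 2.53 (2.06 to 3.10). Mrtfb, a coactivator of the serum response factor that is released when actin filaments form, had 2.14 (1.87 to 2.45). By the rule for named genes, the spliceosomal scaffold gene Srrm2 stood at 506 CPM against 269 CPM (1.88, 1.58 to 2.22). It was the only member past 1.5-fold of 9 RNA-binding and nuclear retained genes, in which the nuclear RNA Malat1 was at 1.02 and Neat1 at 1.27 (0.961 to 1.66).

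The higher genes had long transcripts. In the GENCODE annotation, the longest transcript (the longest coding one for a gene with a coding transcript) of the 133 higher genes had a median length of 4520 bases, against 2533 for all 3695 genes tested and 2517 for the 196 lower ones. Among genes with a coding transcript, 126 of the 133 and 3508 of the 3695, the median 3′ UTR was 2338 bases against 1002.5 and the coding part 1734 against 1047. The median gene span was 38312 against 18008. With the genes sorted by transcript length into 4 bins, 3 of 924 were higher in the shortest (0.325%), then 14 (1.52%), 35 (3.79%) and 81 of 923 in the longest (8.78%). The lower genes showed no such slope, with 41, 57, 57 and 41 in the same bins. Among the 1324 genes with at least 300 UMIs, the 46 higher ones had a median of 4727 bases and all of them 2028.5. At P6 the higher genes had a median of 4129 bases, the lower ones 3286.5 and all genes 2904, so there the lower genes were longer than all genes too. Several leaders were exceptions, since Actb (1920 bases), Kdelr2 (1829) and Slc39a1 (2364) are shorter than the overall median.

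**Figure D4:**
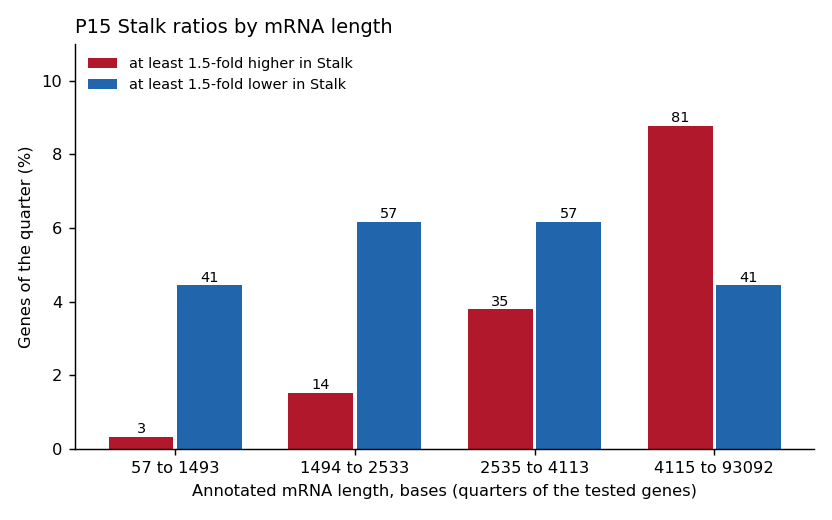
Percentage of tested genes at least 1.5-fold higher (red) or lower (blue) in P15 Stalk cells, in 4 bins of annotated mRNA length; numbers above the bars are genes. The higher genes go from 3 in the shortest bin to 81 in the longest, and the lower genes stay between 41 and 57.

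Compared with Tip cells directly, 1269 genes had enough UMIs over both clusters, of which 9.3% were at least 1.5-fold higher and 8.35% lower in P15 Stalk cells. Of 7 genes of the tip list with enough UMIs, 0 were higher and 5 were lower, with a median ratio of 0.608 (0.941 over all genes). The secreted peptide gene Adm had 0.452 of the Tip level (0.378 to 0.538), the apelin gene Apln 0.608 (0.453 to 0.816), Trp53i11 0.430 (0.348 to 0.529), the filopodial actin bundler Fscn1 0.505 (0.424 to 0.601) and Igfbp3 0.622 (0.419 to 0.920). The other two were the VEGF receptor Kdr at 1.02 (0.785 to 1.33) and Ankrd37 at 0.833 (0.656 to 1.06). Members below the UMI minimum ranged widely. The Tie2 ligand Angpt2 had 0.136 (0.0512 to 0.309), the urokinase receptor gene Plaur 0.155 (0.0625 to 0.339) and Esm1, by which the study named its Tip cells, 0.221 from 4 and 13 UMIs, while the Notch ligand Dll4 had 0.853 (0.557 to 1.31) and the netrin receptor Unc5b 0.863 (0.411 to 1.84). Against all other cells the tip list was near level, with 0 of 11 higher and 1 lower, Igfbp3 (0.647, 0.473 to 0.870).

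Other lists set against Tip cells gave mixed counts, beside 9.3% higher, 8.35% lower and a median ratio of 0.941 over all genes. Of 14 barrier carriers 7 were higher and 0 lower, with a median of 1.46, and the organic anion carrier Slco1a4 was 4.12-fold the Tip level (3.15 to 5.47). Of 5 shear and vasoactive genes 2 were higher and 1 lower (Adm), with the flow-induced factor Klf2 at 1.87-fold (1.63 to 2.14). Of 3 genes of the BMP and Id list 1 was higher, Id1 at 2.56-fold (1.95 to 3.38), and Id2, with 55 and 9 UMIs, was at 4.39-fold (2.15 to 10.1). Jag1 was 4.99-fold the Tip level (2.99 to 8.86). The Notch target Hes1 was at 1.04 (0.877 to 1.25) and the VEGF trap Flt1 at 1.10 (0.925 to 1.31).

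Against Cap-Arterial cells several of these genes were lower in Stalk cells. Id1 stood at 0.489 of the Cap-Arterial level (0.415 to 0.575), Id2 at 0.479 (0.335 to 0.678), Klf2 at 0.628 (0.570 to 0.692), Slco1a4 at 0.660 (0.572 to 0.762) and Flt1 at 0.500 (0.434 to 0.576), while Hes1 was at 1.05 (0.885 to 1.25). Against Cap-Venous cells Id1 was at 1.47 (1.24 to 1.73), Klf2 at 1.07 (0.978 to 1.17), Id2 at 0.993 (0.704 to 1.39), Slco1a4 at 0.754 (0.666 to 0.853) and Hes1 at 1.204 (1.04 to 1.39). Id1, Id2, Klf2 and Slco1a4 were thus higher than in Tip and lower than in Cap-Arterial cells.

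Arterial genes had unlike ratios under the P15 and the P6 label. Of 15 arterial genes with enough UMIs at P6, 1 was higher (Jag1) and 12 were lower in Stalk cells, with a median ratio of 0.290, beside 2.96% higher and 7.28% lower of all genes. Of 10 at P15, Jag1 was again higher and 3 were lower, with a median of 0.789, beside 3.6% and 5.3% of all genes. The same 10 genes at P6 had 1 higher and 7 lower, with a median of 0.369. Cxcl12, the chemokine that guides cells bearing Cxcr4, was found in 10 of 230 Stalk cells at P6, 9.97 CPM, and in 41 of 85 at P15, 683 CPM with up to 29 UMIs in a cell. Its ratio to the other cells was 0.105 (0.0571 to 0.177) at P6 and 1.16 (1.01 to 1.32) at P15. With labels predicted from neighbouring cells added to the published ones, the P15 ratio was 0.864. Among P15 clusters Cxcl12 was highest in Cap-Arterial (2715 CPM) and Arterial (1141 CPM), and lower than in Stalk in Cap-Venous (126 CPM) and Tip (84.5 CPM). The 5 Stalk cells with the most Cxcl12 held 41.5% of its UMIs, so the level came from part of the label. The Notch target Hey1 had 34 UMIs in 18 P15 Stalk cells (1.33 of the others, 0.878 to 1.96) and a P6 ratio of 0.262 (0.145 to 0.438). With predicted labels its P15 ratio was 0.775, and with every other cluster weighted equally 0.799, so its P15 direction depends on the setting. Elastin, Eln, was at 0.642 (0.429 to 0.933; 0.426 without its top cell) and 0.0624, and the matrix Gla protein gene Mgp at 0.573 (0.369 to 0.858) and 0.0891. Mgp was at 0.923 in thinned P15 cells and at 0.245 with every other cluster weighted equally. The connexin Gja4 was low at both ages, 0.425 (0.273 to 0.637) and 0.269, and at 0.204 in thinned P15 cells. Venous genes were near level, with 0 of 8 past 1.5-fold in either direction at P15.

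Over both sets of Stalk cells 2926 genes had enough UMIs, of which 495 (16.9%) were at least 1.5-fold higher and 434 (14.8%) lower at P15. In the other labelled cells 14.1% of the same genes were higher and 12.3% lower. Of 5 arterial genes with enough UMIs in Stalk cells 2 were higher and 0 lower, with a median age ratio of 1.09 (1.04 over all genes). In the other labelled cells 2 of the same 5 were higher and 1 lower, with a median of 0.833 (1.03 over all genes). Slco1a4, a carrier of the mature barrier, went from 16 UMIs to 361, or 11.4 to 913 CPM, a ratio of 80.2 (48.7 to 142), against 26.8 (23.7 to 30.3) in the other labelled cells. Cxcl12 had a ratio of 68.5 (40.1 to 127) in Stalk cells and 6.22 (5.66 to 6.83) in the others, 11.02 times as large (6.39 to 19.02). It was 109 in thinned cells. Depp1, a target of FoxO factors, had 26.5 (16.5 to 44.6) and 12.4 (10.6 to 14.5). The arterial genes Hey1, Eln and Mgp, with under 100 UMIs over the Stalk cells, had ratios of 8.05, 37.9 and 15.99, against 1.59, 3.68 and 2.49 in the others. The remaining arterial genes below the UMI minimum are not given here. Actb was lower at P15 in both, at 0.690 (0.676 to 0.704) in Stalk cells and 0.753 (0.737 to 0.770) in the others. Without Gm37760, the age ratio of the leading genes in Stalk cells was 0.916 to 1.36 times that in the other cells.

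**Figure D5:**
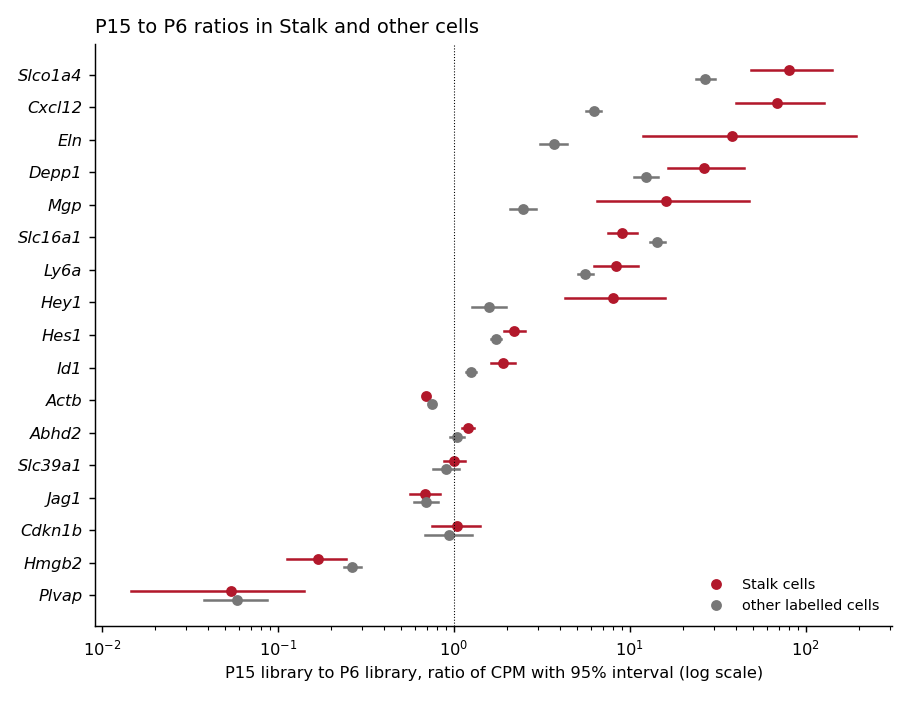
Ratio of CPM at P15 to P6 in Stalk cells (red) and the other labelled cells (grey) for 17 genes, on a log scale, with 95% intervals for counting error. The bars of Cxcl12 (68.5 and 6.22), Slco1a4 (80.2 and 26.8) and Hey1 (8.05 and 1.59) lie apart in the 2 sets, and those of Jag1 and Cdkn1b overlap.

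Gene groups that changed with age in Stalk cells did so in the other cells too. The counts below stand beside 16.9% of all genes higher and 14.8% lower at P15 in Stalk cells. In the other cells these shares were 14.1% and 12.3%. Of 12 immediate early genes, which respond within minutes to stimulation or to tissue handling, 11 were higher at P15, among them Dusp1 (7.04) and Jun (4.57), beside 10 of the same 12 in the other cells. All 6 hypoxia genes with enough UMIs were higher in both sets, with Ankrd37 at 6.93 and 6.17. Of 16 barrier carriers 8 were higher and 0 lower in both, and 75 of 81 ribosomal protein genes were lower in Stalk cells and 66 in the others. Of 7 genes of the DNA replication list 6 were lower in both. The fenestral diaphragm gene Plvap, a sign of an immature barrier, was at 0.0542 and 0.0587. In Stalk cells the proliferation gene Rrm2 was at 0.0299 and Birc5 at 0.0304. Of 4 genes of the mitosis and spindle list 3 were lower in both sets, with a median of 0.0927 in Stalk cells and 0.229 in the others. The other cells also differed in make-up, since Proliferative cells were 12.7% of labelled cells at P6 and 3.20% at P15. The part this plays in their ratios was not tested. Pclaf, with 159 UMIs in P6 Stalk cells, had 0 UMIs at P15, where 3 counts, the limit used here for a count of 0, would be 7.59 CPM.

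Few genes of the other groups were past 1.5-fold between Stalk and the other P15 cells, where 3.6% of all genes were higher and 5.3% lower, so a count of 0 in a short list says little. Past 1.5-fold were 0 of 16 barrier carriers (0.743 to 1.30), 0 of 14 heat shock genes, 0 of 6 hypoxia genes, 0 of 81 ribosomal protein genes (0.718 to 1.08), 0 of 12 basement membrane genes, 0 of 10 junction genes and 0 of 5 genes of TGF signalling. Of 16 immediate early genes 1 was lower, Zfp36 (0.624, 0.320 to 1.12). Among flow-regulated genes, thrombomodulin, Thbd, was higher (1.56, 1.16 to 2.09) and the nitric oxide synthase Nos3 lower (0.587, 0.353 to 0.928). Of 4 genes of the DNA replication list, which also held the microtubule regulator gene Stmn1, 2 were lower. These were Mcm6 (0.658, 0.371 to 1.10) and Stmn1 itself (0.658, 0.513 to 0.835), and Stmn1 was at 0.962 without the Proliferative cells. Of 7 D cyclins and CDK inhibitors Cdkn1b was higher, and Cdkn1c and Cdkn2d were lower, with Cdkn1c at 0.776 in thinned cells. Of 5 high-mobility group genes 2 were lower, Hmgb2 (0.387, 0.255 to 0.566) and Hmgb3 (0.552, 0.333 to 0.871). Hmgb2 was at 0.671 without the 14 Proliferative cells among the others. The interferon-induced gene Isg15 was at 0.433 (0.259 to 0.686) and the only one of 8 past 1.5-fold.

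The genes with the smallest P15 ratios had few Stalk UMIs. Ptprr, a receptor-type phosphatase, had 1 UMI in Stalk cells and 106 in the others (0.0417, 0.00104 to 0.237), and was at 0.435 at P6. Acly, which makes cytosolic acetyl-CoA for lipid synthesis, had 6 against 98 UMIs (0.270, 0.0969 to 0.610), with 0.883 at P6. The small nuclear RNA Rn7sk had 0.272 (0.177 to 0.402), but without the cell with the most UMIs of it, a cell outside the label, the ratio was 0.804. The elastic fibre gene Fbln5 was low at both ages, 0.428 (0.301 to 0.592) and 0.329. Others among the 10 smallest were near level at P6: Fes was at 1.07, Nsun2 at 1.09, Triap1 at 1.09 and Rnf4 at 0.844.

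Markers of other cell types were measured in the label. The study filtered out cells with Hbb-bt, Neurod1 or Cd63, so a count of 0 for these genes was set by that filter. The 7 photoreceptor markers summed to 31 UMIs in Stalk cells, 78.4 CPM against 131.8 CPM in the others, with at most 7.53 per 10000 UMIs in a Stalk cell and 211 in another. Of 9 mural markers, Tagln and Cd63 were at 0 UMIs, Pdgfrb had 2 and Acta2 1, but Rgs5 had 109 UMIs in 26 Stalk cells (1.87 of the others, 1.48 to 2.35), of which 72.5% were in 5 cells. The summed mural level was 349 CPM in Stalk cells and 190 CPM in the others, and ran from 0 to 64.0 per 10000 UMIs in a Stalk cell and from 0 to 67.8 in another. Red cell markers summed to 223 CPM against 166 CPM, with Hbb-bt and Alas2 at 0 in Stalk cells. Of 4 neural, 7 microglial and 2 platelet markers, Stalk cells held 0, 1 and 0 UMIs. The 5 glial markers summed to 1058 CPM against 1143 CPM, nearly all from Glul, which endothelial cells also express, with Slc1a3 at 0. The part that such RNA plays in the ratios was not tested.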

How the data were processed

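Single-cell RNA counts of 1 P6 and 1 P15 library were used. The authors deposited tables of raw UMI counts per gene and barcode, which were used as deposited; the aligner is not given in the sources used here. The submitters' processing notes name mm10 and Seurat 3.0, which the authors used to filter, integrate and cluster the cells. Rows without a gene symbol (0.0145% of UMIs at P6, 0.0146% at P15) were left out.

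Cluster labels came from the study's published source data, whose P15 part at hand covers 438 cells. The members and gene lists were chosen with earlier results of these data known. UMIs were summed over cells, divided by the total and compared as ratios with conditional binomial 95% intervals; levels have Poisson and shares Clopper-Pearson intervals. With 1 library per age no test between samples was made. The steps were tested on simulated data. The work used Python 3.11.15, numpy 2.4.6, scipy 1.17.1 and pandas 2.3.3, with scikit-learn 1.9.0 for predicted labels.

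Genes needed 100 UMIs over the cells compared. Named were Actb, the 15 largest (at least 30 Stalk UMIs) and 10 smallest P15 ratios, the 8 largest and 8 smallest age ratios, members of each list by UMIs or by ratio, the 8 genes most correlated with Actb, the study's cluster genes, and counts of cells with Xist or Y-linked UMIs. Alternatives changed the UMI minimum, the fold, the scaling, the weight of cells and clusters, the cells kept, the depth per cell and the labels.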

Additional observations from a re-analysis of the deposited data

Results flagged for a closer look

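Ccn2, a matricellular gene and a known target of YAP and SRF, went in opposite directions at the 2 ages. At P15 it was 2.01 times as high in Stalk cells as in the other labelled cells (47 UMIs, 95% interval 1.396 to 2.87), and at P6 its ratio was 0.419 (7 UMIs, 0.164 to 0.896). It was the only 1 of 3679 genes with enough UMIs at both ages that was past 1.5-fold in opposite directions. At P15, 63.8% of its Stalk UMIs were in 5 of the 16 cells that held it. The difference between the ages was not tested, and age and library cannot be told apart.

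The P15 barcodes without a label also held cells with much Actb. There were 1700 unlabelled barcodes with at least 500 UMIs. Of these, 226 (13.3%) were at or above 153 Actb UMIs per 10000, the lower quartile of the labelled Stalk cells. Among labelled P15 cells this level was reached by 64 of 85 Stalk cells (75.3%) and 11 of 353 cells of other clusters (3.12%). The copy used here lacks part of the study's labels, so the unlabelled barcodes can include cells that the study called Stalk. These barcodes entered no comparison of labelled cells. With published labels kept and the remaining cells labelled from their nearest labelled cells, 199 of 1673 P15 cells were Stalk (11.9%, 10.4 to 13.5). Of the 199, 114 were added by prediction. In cross-validation predicted labels found 50.6% of the true Stalk cells, and 95.6% of the cells they called Stalk were Stalk.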

How the results depend on the processing

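No paired analysis was possible because each age has 1 library. The P15 ratios of the 15 leading genes kept their side of 1.5-fold under the alternatives tried (Actb 5.11 to 5.77, Slc39a1 5.19 to 8.91, Abhd2 6.17 to 7.53), except Gm37760. That of Jag1 ran from 1.75 to 3.27. For P15 Stalk against other cells, 308 genes were higher and 554 lower with a minimum of 50 UMIs, 71 and 46 with 200, 60 and 30 at 2-fold, and 245 and 396 in cells thinned to 3000 UMIs. With equal weight for clusters 242 were higher. Without the cell with the most UMIs of each gene 296 were lower, and with predicted labels 69 were lower. For P6 the counts were 383 and 1035 (50 UMIs), 148 and 244 (200 UMIs), 101 and 182 (2-fold), and 406 and 1021 (thinned). For P15 to P6 Stalk cells they were 1004 and 737 (50 UMIs), 241 and 250 (200 UMIs), and 171 and 160 (2-fold). A lower UMI minimum and thinning leave fewer UMIs behind each ratio. With predicted labels added to the published ones the Stalk share was 11.9% (19.4% as labelled). With the median ratio between the ages set to 1, 432 genes were higher and 491 lower (495 and 434 without). Of the ratios of single named genes over all alternatives, 6047 moved by less than their interval, 372 by more, and 9 that were past 1.5-fold turned in direction. Hey1 and Cxcl12, which were not past it at P15, were at 0.775 and 0.864 with predicted labels. Reversed were Mcm6 at P15 (1.07 with predicted labels), the age ratio of Gm37760 (0.543 thinned, 0.571 without its top cell), and at P6 without Proliferative cells Birc5 (1.18), Cdk1 (1.05), Cks2 (1.23), Hmgb2 (1.06), Mki67 (1.13) and Pclaf (1.05). The cause was not tested for Mcm6. Depth limits genes such as Cdkn1b (55 Stalk UMIs), and cells of 1 library share its errors.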
